A study of Mus musculus with 10 samples.

Results

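The genes described here are 39 interferon-stimulated genes of the mouse, of the 55536 genes counted in bladder RNA. They were chosen by name, with earlier results of these data known. They were followed across 10 bulk RNA-seq libraries of C57BL/6 bladder tissue. The 4 control libraries carried the genotype wild type, 3 libraries carried OMD-/- and 3 carried PRELP-/-, which the labels spell PRLEP-/-. Both knockouts were constitutive, with exons of the targeted gene replaced by a β-galactosidase knock-in, so that every cell of the animal lacked the gene from conception. OMD (osteomodulin) and PRELP (prolargin) are small secreted leucine-rich proteoglycans of the extracellular matrix. The labels gave no treatment, infection, age or sex, and nothing said whether replicates came from separate animals, so p-values measure the spread between libraries, which may be partly technical. The study asked what the loss of either proteoglycan did to gene expression in the bladder. It described isolated bladder epithelium, whereas the labels described excised and homogenised bladder tissue.

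Interferons are secreted proteins released by cells that sense viral or other misplaced nucleic acid. Type I and type III interferons lead, through Jak1 and Tyk2, to a complex holding Stat2 and Irf9 that binds the interferon-stimulated response element (ISRE), while the response to interferon gamma runs through the gamma-activated site (GAS). The genes induced in this way block viral replication, cut up viral RNA, tag proteins with Isg15 or feed peptides to MHC class I. A low tonic level of this program is known in many healthy tissues, the epithelia and resident macrophages included.

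Promoter sequences are shown because the ISRE and GAS are the elements through which such genes are known to answer interferon. RefSeq promoters of build GRCm38.p6, each running from 250 bases before to 50 bases after a RefSeq start, were at hand for 30 of the 39 genes. Dhx58, Zbp1, Oas2, Usp18, Mx1, Mx2, Rtp4, Parp14 and Iigp1 had no entry. The letters GAAANNGAAA, the core of an ISRE, were searched on both strands and were found in 17 of the 30 (56.7%), against 3.99% of all 27025 genes with a promoter entry. The letters TTCNNNGAA, a GAS, read the same on both strands and were found in 10 of the 30 (33.3%), against 9.55% of all, so that 22 of the 30 held at least one of them. The windows below belong to genes on which the later results turn, with the matched letters of a single set, ISRE or GAS, in capitals and the gene's own strand written 5′ to 3′.
Ifih1, chr2:62646206-62646233, minus strand: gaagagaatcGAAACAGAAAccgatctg
Ddx58, chr4:40239804-40239833, minus strand: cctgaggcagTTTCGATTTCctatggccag
Stat2, chr10:128270256-128270305, plus strand: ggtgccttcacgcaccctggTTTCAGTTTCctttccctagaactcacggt
Gbp2, chr3:142620584-142620633, plus strand: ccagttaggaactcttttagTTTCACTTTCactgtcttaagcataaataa
Irgm1, chr11:48871421-48871470, minus strand: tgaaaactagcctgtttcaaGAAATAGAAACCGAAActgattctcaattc
Igtp, chr11:58199502-58199551, plus strand: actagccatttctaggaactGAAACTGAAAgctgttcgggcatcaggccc
Bst2, chr8:71537567-71537622, minus strand: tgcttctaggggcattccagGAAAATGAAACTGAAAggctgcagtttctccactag
Ifit3, chr19:34583387-34583436, plus strand: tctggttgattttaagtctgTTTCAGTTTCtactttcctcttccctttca
Psmb8, chr17:34198078-34198126, plus strand: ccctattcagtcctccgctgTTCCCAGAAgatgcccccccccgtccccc
Irf1, chr11:53769904-53769952, plus strand: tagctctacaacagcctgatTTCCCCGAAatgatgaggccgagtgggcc
Counting the RefSeq start as base 0, the Gbp2 match began at base -59, the Irgm1 match at base -30, the Igtp match at base -34 and the Bst2 match at base -130. In Ifih1 and Ddx58 the match lay inside the first transcribed bases, beginning at base 32 and base 2. Irgm1 and Bst2 each held 2 overlapping copies, seen as GAAA repeated with the same spacing. The Psmb8 and Irf1 windows carried a GAS and no ISRE letters. The Bst2 and Igtp windows held GAS letters as well as the ISRE, left in lower case where the ISRE does not share them. Of the 8 genes that are reported below as higher in OMD-/-, 7 had a promoter entry and 4 of those held ISRE letters, and of the remaining 31 genes 23 had an entry and 13 held them. Oasl2 and Tap1 had neither set of letters in this window.

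Levels are given as counts per 1000000 counts of a library (CPM), scaled over the 10 libraries together, and the 3 values of a knockout and the 4 of wild type are always written in the order of the library numbers. The libraries held 20391437 to 46269079 counts, at which 3 counts correspond to 0.0648 to 0.147 CPM before that scaling. Omd was at 0 counts in each OMD-/- library and at 0, 1, 8 and 12 counts in wild type, too few to test. Prelp was at 1.84 to 4.20 CPM in PRELP-/- against 215 to 317 CPM in wild type. In OMD-/- Prelp was higher than in wild type, at 772, 824 and 826 CPM, with a log2 fold change of 1.59 ± 0.12 (SE, edgeR adjusted p = 1.28e-05). The uroplakin and keratin mRNAs of umbrella cells that mark bladder urothelium summed to 7786 CPM or more in each library. Libraries stood apart within the groups. Wild-type 1 and 2, wild-type 3 and 4, OMD-/- 2 and 3 and PRELP-/- 2 and 3 formed 4 close pairs, with coefficients of biological variation of 0.0384 to 0.0927 within the pairs and 0.167 to 0.379 between other libraries of a group. All 4 pairs differed by more than sampling noise and were kept as separate libraries. Summed smooth muscle markers were at 310 and 294 CPM in wild-type 1 and 2 and at 1174 and 1032 CPM in wild-type 3 and 4. The nuclear long noncoding RNAs Neat1, Malat1 and Firre separated every knockout library from every wild-type library. Neat1 was at 342 to 450.2 CPM in wild type and 13.2 to 26.3 CPM in the knockouts, Malat1 at 757 to 1117 and 177 to 318 CPM, and Firre at 90.1 to 112 and 2.45 to 4.48 CPM. A difference in how wild-type and knockout libraries were made and a difference in genotype cannot be told apart here, and this holds for each comparison with wild type below. Y-chromosome genes were counted above 10 CPM in wild-type 1 and 2, in all 3 PRELP-/- libraries and in OMD-/- 1, and not in the other 4. Before scaling they were at 211 and 179 CPM in wild-type 1 and 2, at 98.2, 18.5 and 18.4 CPM in PRELP-/- and at 17.4 CPM in OMD-/- 1. The X-chromosome RNA Xist was at 2.13, 5.64, 1020 and 1227 CPM in wild type, at 38.2, 88.8 and 76.6 CPM in OMD-/- and at 0.398, 48.6 and 55.5 CPM in PRELP-/-. Libraries put together by Y-chromosome counts were thus not matched in these levels.

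In wild type the 39 genes lay between 0.0711 and 17.3 CPM per kb of exon, with a median of 3.46, against a median of 4.33 over all 16647 genes tested. Highest was Bst2 (tetherin, which holds budding virus at the cell surface), at 17.3 ± 2.22 CPM per kb (SD, n = 4). Isg20, Ifi35 and Gbp2 followed, at 11.9 ± 1.15, 11.9 ± 1.16 and 11.7 ± 3.04 CPM per kb, and these lay within each other's spread. A broad middle group ran from Usp18 at 8.27 ± 1.40 to Psmb8 at 7.30 ± 0.586 CPM per kb, taking in Irf1, Eif2ak2, Stat2, Ddx58 and Tap1, whose means again lay within the spread of their neighbours. At the low end stood Oas2, Mx1, Mx2 and Oas3, each at or below 0.349 CPM per kb.

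**Figure D1:**
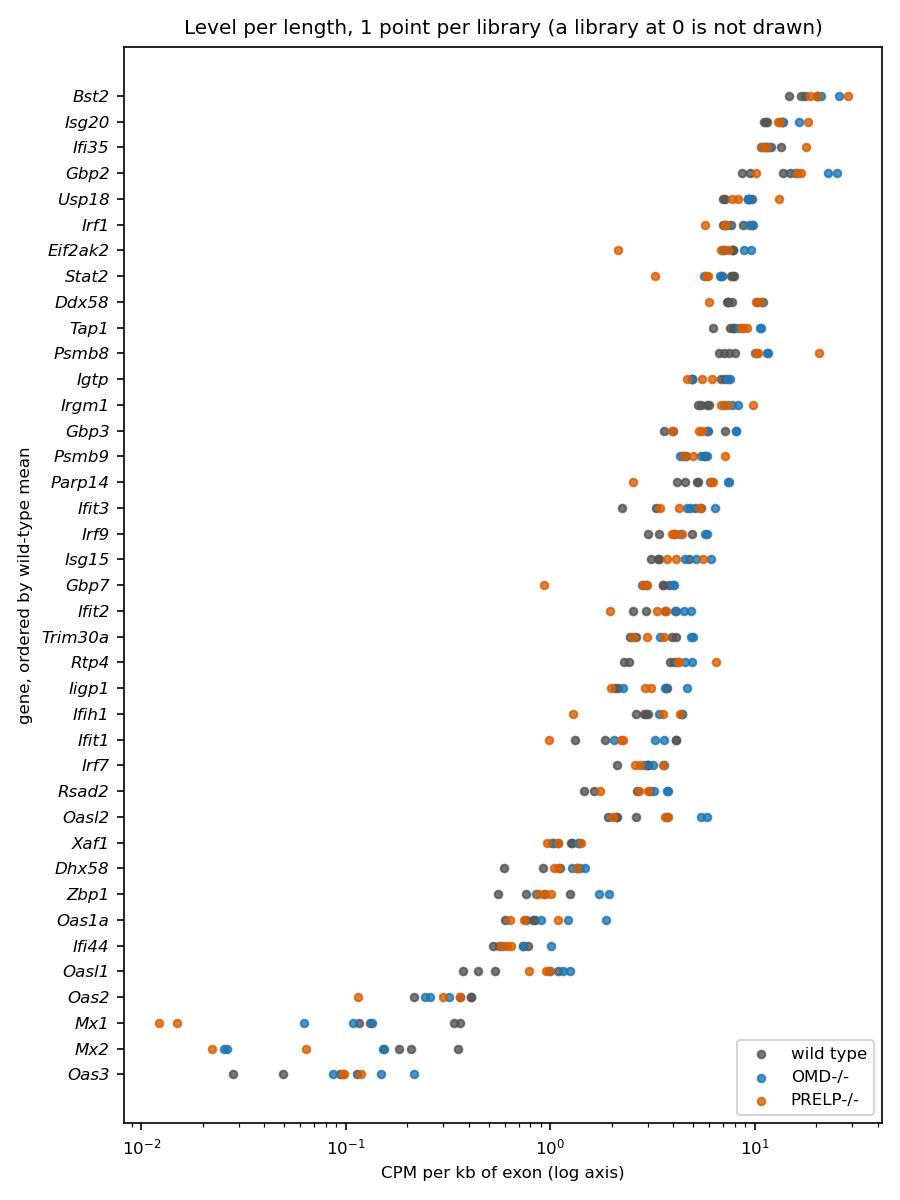
Level of each of the 39 genes in CPM per kb of exon on a log axis, 1 point per library, with genes ordered by their wild-type mean and libraries coloured by genotype. Bst2 is at the top at 17.3 CPM per kb in wild type and Oas3 at the bottom at 0.0711, and single PRELP-/- points stand to the left of the others for Eif2ak2, Gbp7, Ifih1 and Stat2.

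The program was not at one level within a genotype. For 29 of the 39 genes both wild-type 3 and 4 lay above both wild-type 1 and 2, and for 4 genes both lay below. OMD-/- 1 was below both other OMD-/- libraries for 32 genes and above both for 1. PRELP-/- 1 was below both other PRELP-/- libraries for 24 genes and above both for 14. Summed over the 39 genes, the level was 615, 601, 716 and 699 CPM in wild type, 734, 924 and 901 CPM in OMD-/- and 643, 734 and 742 CPM in PRELP-/-. All 3 OMD-/- sums thus lay above the wild-type sums, 1 of them by a small step, and PRELP-/- overlapped wild type.

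**Figure D2:**
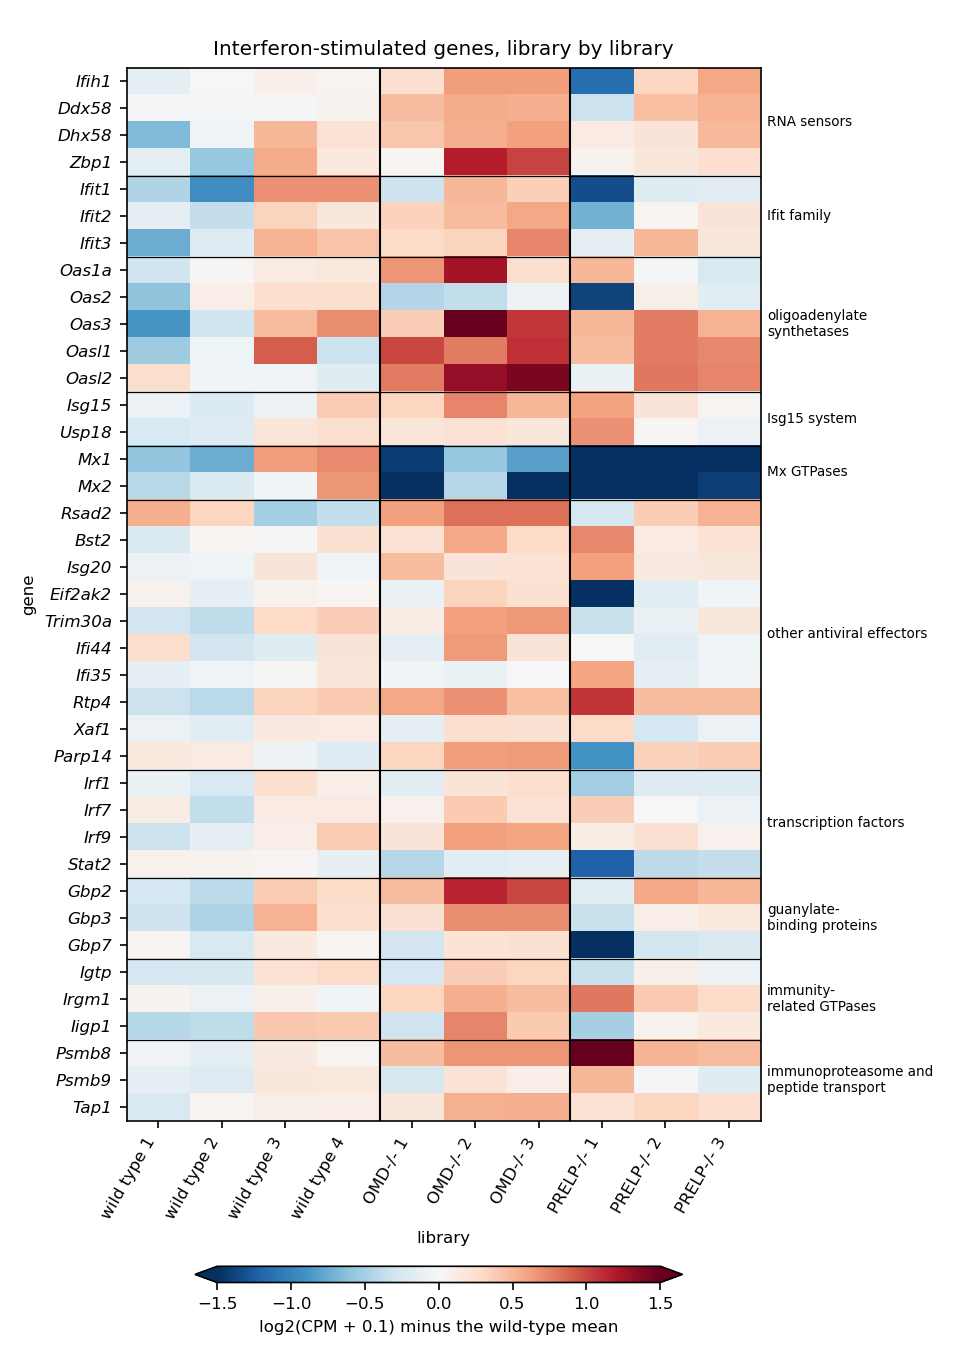
Each row is 1 gene and each column 1 library, and the colour gives log2(CPM + 0.1) minus the mean of the 4 wild-type libraries, cut at 1.5 in either direction. The medians over the 39 genes are 0.19, 0.55 and 0.45 in OMD-/- and -0.10, 0.10 and 0.15 in PRELP-/-, and the Mx1 and Mx2 rows are dark blue in most knockout libraries.

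In OMD-/- against wild type, 8 of the 39 genes rose past an adjusted p of 0.05 and none fell. They were the RNA sensors Ifih1 and Ddx58, the oligoadenylate synthetase-like Oasl2, the ADP-ribosyltransferase Parp14, the GTPases Gbp2 and Irgm1, and the antigen-processing genes Psmb8 and Tap1. The rises ran from 1.34-fold for Tap1 to 2.28-fold for Oasl2. The share that rose, 20.5%, has to be read against 14.3% of all 16647 genes tested that rose in this comparison and 15.1% that fell, a wide background. Fitted log2 fold changes were positive for 34 of the 39 genes (87.2%), against 50.0% of all genes, with a median of 0.42 against -0.00. At an unadjusted p under 0.05, 19 genes were higher and 2 lower by edgeR, against 3388 and 3494 of all 16647 genes. DESeq2 called 11 higher and 0 lower, against 8.47% and 8.27% of the 31201 genes in its fit. With no test, the OMD-/- libraries lay wholly above wild type for 12 genes (30.8%, against 19.2% of all genes) and wholly below for 2 (5.13%, against 19.7%). The number that rose was 13 without wild-type library 3 and 6 to 11 without any other library. It was 3 (Ddx58, Oasl2 and Psmb8) with the close pairs summed, when 3.41% of all genes rose and 5.65% fell. It was 2 (Oasl2 and Gbp2) when the 3 genotypes shared 1 fit, in which 6.56% of all genes rose and 8.13% fell.

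A fit of only wild-type 3 and 4 and OMD-/- 2 and 3 held 2 close pairs. Its spread was that within the pairs, which may be partly technical, so its calls are no firmer than those of the main fit. Among these 4 libraries, which were those without Y-chromosome counts, 16 of the 39 genes rose and 2 fell, against 27.4% and 26.3% of all genes. In the libraries with such counts, wild-type 1 and 2 and OMD-/- 1, 10 rose and 1 fell (Stat2), against 12.2% and 12.3% of all genes. The spread in that fit came from the wild-type pair alone, and the lone OMD-/- library was assumed to vary like it. Markers of immune cells were also higher in OMD-/-. In the main fit of all wild-type and OMD-/- libraries, 14.3% of all genes rose and 15.1% fell. There, of 7 macrophage markers 6 rose, of 5 pan-leukocyte markers 3 rose, of 5 B and plasma cell markers all 5 rose, and of 6 T and NK cell markers 3 rose. The summed macrophage markers were at 358 to 432 CPM in wild type and at 408, 747 and 769 CPM in OMD-/-. The summed B and plasma cell markers were at 7.64 to 17.3 CPM in wild type and at 37.4, 195 and 193 CPM in OMD-/-, and the summed pan-leukocyte markers at 85.1 to 97.1 and at 120, 259 and 263 CPM. Elsewhere in the marker lists, 2 of 6 umbrella cell markers, 3 of 5 fibroblast markers and 1 of 5 dendritic cell markers rose. Of 4 basal markers 1 rose and 1 fell. Of 5 endothelial markers 1 fell (Egfl7), although 4 of the 5 fitted values were positive. By limma-voom 4 endothelial markers were higher and 1 lower, where it called 22% of all genes higher and 21.4% lower. Neither the 5 smooth muscle markers nor the 1 neutrophil marker that could be tested was called by edgeR. No marker of the macrophage, pan-leukocyte, B and plasma cell or T and NK cell lists was at 0 in any OMD-/- library, whereas the neutrophil marker Ly6g was at 0 counts in all 10 libraries. The libraries with most of these markers, OMD-/- 2 and 3, were also those with the highest interferon gene sums. The part of these cells in the rise was not tested. In bulk tissue, more cells of a type and more RNA per cell cannot be told apart.

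**Figure D3:**
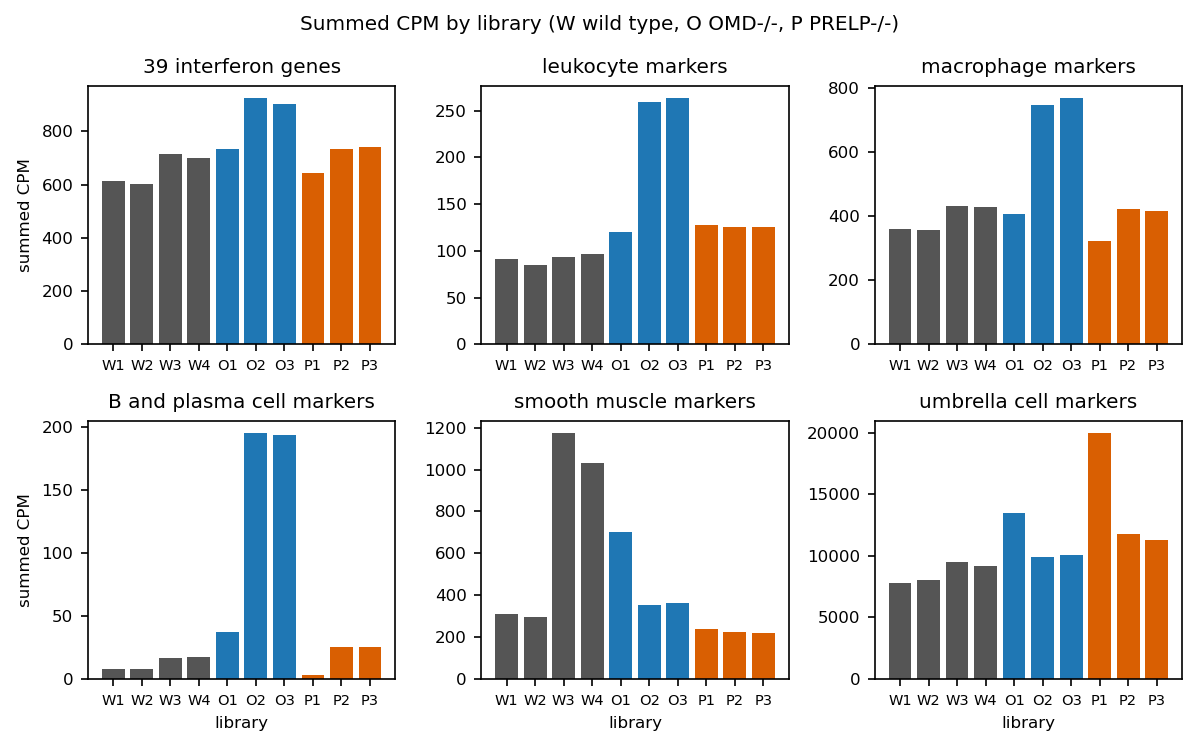
Bars give the CPM summed over the 39 interferon genes and over 5 marker lists in each library, labelled W for wild type, O for OMD-/- and P for PRELP-/-. OMD-/- 2 and 3 stand out for the leukocyte, macrophage and B and plasma cell markers, wild-type 3 and 4 for smooth muscle (1174 and 1032 CPM), and PRELP-/- 1 for umbrella cells (19965 CPM).

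In PRELP-/- against the same wild-type libraries, none of the 39 genes rose and 2 fell, Mx1 and Mx2, both near the limit of detection. Over all 16581 genes tested, 1.4% rose and 5.89% fell, 7.29% in all, so that the 5.13% of interferon genes that fell was close to the background. At an unadjusted p under 0.05, 3 genes were higher and 3 lower by edgeR, against 1914 and 2512 of all 16581 genes. DESeq2 called Irgm1 and Psmb8 higher and Mx1 and Mx2 lower, against 2.97% and 5.17% of the 31117 genes in its fit. By limma-voom 9 were higher and 4 lower, where it called 20.5% of all genes higher and 21.5% lower. The median log2 fold change was 0.09 against 0.02 for all genes, and 24 of 39 values (61.5%) were positive against 52.1%. The PRELP-/- libraries lay wholly above wild type for 4 genes (10.3%, against 13.6% of all genes) and wholly below for 3 (7.69%, against 16.4%). Among single libraries, PRELP-/- 1 changed the calls most when left out. Without it, 6 genes rose (Ifih1, Ddx58, Oasl2, Irgm1, Parp14 and Psmb8) and 3 fell (Stat2, Mx1 and Mx2), while 10.7% of all genes rose and 11.5% fell. The knockout libraries left in that fit, PRELP-/- 2 and 3, were a close pair, so their spread was only that within the pair. With the close pairs summed and PRELP-/- 1 kept, none of the 39 was called. Against the mean of the other PRELP-/- libraries, the median of PRELP-/- 1 was lower for long genes and higher for short ones. Among the interferon genes the median log2 difference was -0.80 for the 13 with over 5000 exon bases, such as Ifih1, Parp14 and Stat2, and 0.52 for the 6 with under 2000, such as Bst2, Isg20 and Ifi35, with Irgm1 and Ifi44 among the long genes and Ifit3 among the short ones going the other way. Across all 16581 genes the medians were -0.44 and 0.68 for the same length classes. The Spearman correlation of that difference with exon length was -0.49 over the 39 genes, a description over genes that share their libraries. It was -0.32 for OMD-/- 1 against OMD-/- 2 and 3, -0.39 for wild-type 3 and 4 against wild-type 1 and 2, and -0.00 for OMD-/- against wild type. The part of transcript length in the PRELP-/- values was not tested. That library held the highest umbrella cell sum, 19965 CPM against 11296 and 11745 CPM in the other PRELP-/- libraries, and the lowest B and plasma cell sum, 3.58 against 25.7 CPM in both others. Of 5 B and plasma cell markers none rose in PRELP-/- by edgeR or DESeq2, with 1 at an unadjusted p under 0.05, and limma-voom called 2 higher. Of 7 macrophage markers 1 rose by edgeR and 6 had positive fitted values. At an unadjusted p under 0.05, 4 macrophage markers were higher and 1 lower by edgeR. DESeq2 called 1 of them higher and 1 lower, and limma-voom 6 higher and 1 lower. Of 5 pan-leukocyte markers 1 rose by edgeR and by DESeq2, and limma-voom called 2 higher and 1 lower.

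**Figure D4:**
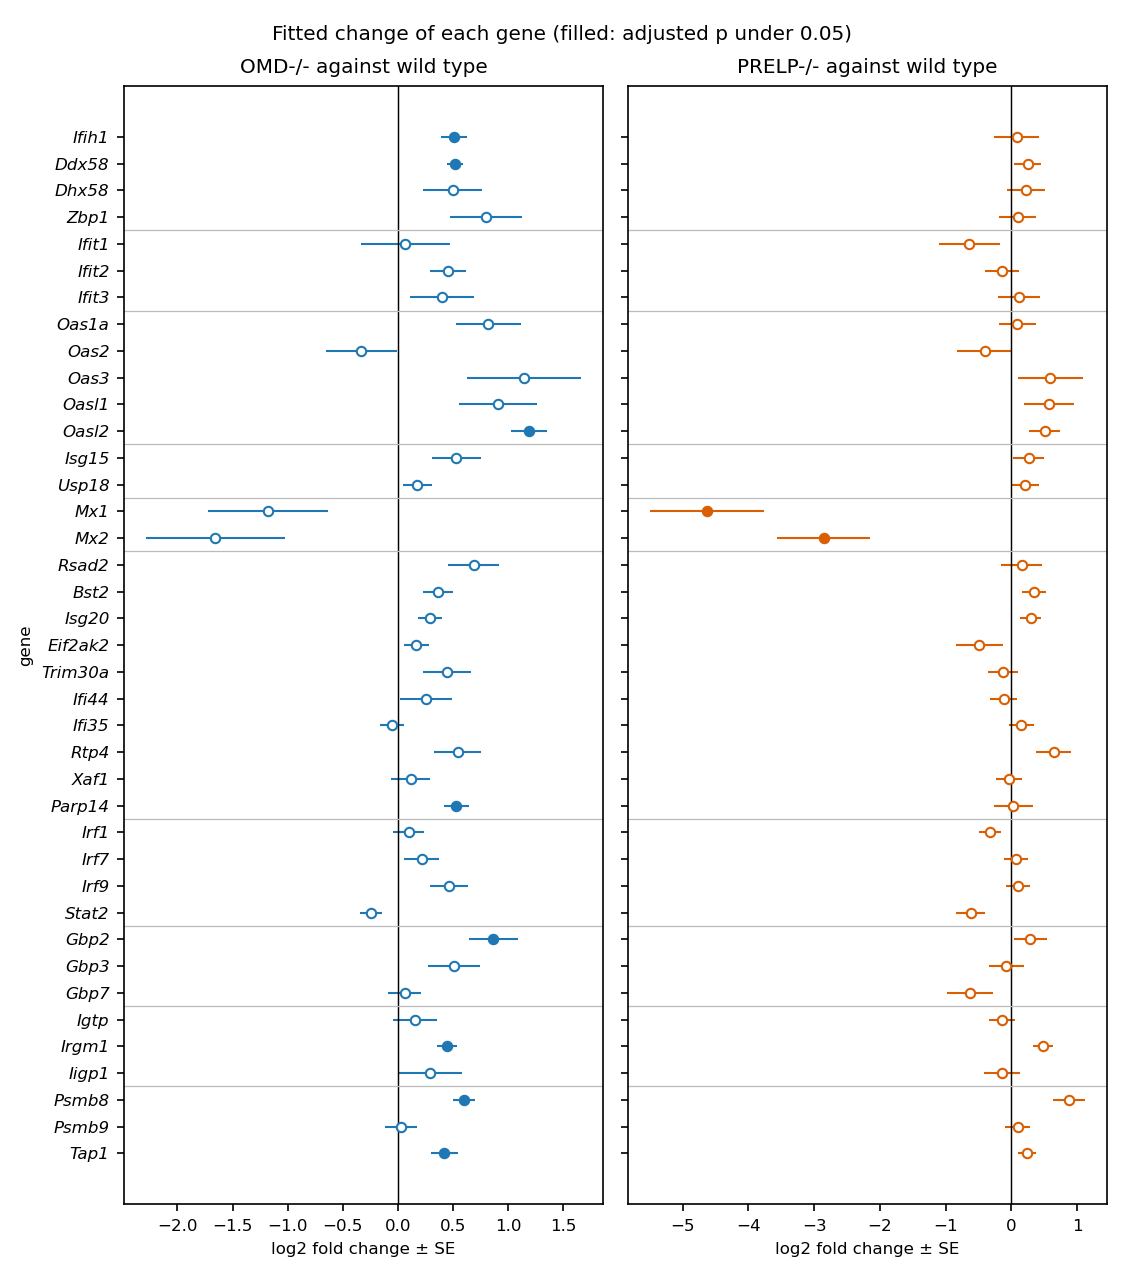
Fitted log2 fold change of each gene with its standard error, OMD-/- on the left and PRELP-/- on the right, each against the same 4 wild-type libraries and on its own axis, with filled points for an adjusted p under 0.05. In OMD-/-, 8 points are filled to the right of 0 and none to the left, and in PRELP-/- the only filled points are Mx1 and Mx2, whose distance from 0 rests on a handful of counts.

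The cytosolic sensors come first in the pathway. Ddx58 (RIG-I, which detects uncapped viral RNA; ENSMUSG00000040296, chr4:40203773-40239828, minus strand) was at 52.01, 51.9, 51.8 and 54.3 CPM in wild type, at 72.1, 76.98 and 76.5 CPM in OMD-/- and at 42.1, 71.6 and 75.7 CPM in PRELP-/-. Each OMD-/- library lay above all wild-type libraries, which were within a narrow range, and PRELP-/- split around them. Fitted as log2 fold change, the difference was 0.52 ± 0.08 (SE) in OMD-/- (adjusted p = 7.68e-04) and 0.25 ± 0.21 in PRELP-/- (adjusted p = 0.462). Ifih1 (MDA5, which detects long double-stranded RNA; ENSMUSG00000026896, chr2:62595798-62646255, minus strand) was at 21.3, 23.5, 24.6 and 24.1 CPM in wild type, at 27.6, 35.97 and 36.1 CPM in OMD-/- and at 10.6, 28.98 and 35.02 CPM in PRELP-/-. It had the same pattern, with OMD-/- above wild type throughout and PRELP-/- 1 the lowest library of all. Its log2 fold change was 0.51 ± 0.12 in OMD-/- (adjusted p = 0.00851) and 0.08 ± 0.34 in PRELP-/- (adjusted p = 0.904). The other sensors, Dhx58 (LGP2) and Zbp1, a sensor of Z-form nucleic acid, were at 1.94 to 6.83 CPM with overlapping groups and were not called. Compared directly, PRELP-/- differed from OMD-/- by -0.25 ± 0.24 for Ddx58, -0.42 ± 0.41 for Ifih1, -0.26 ± 0.20 for Dhx58 and -0.69 ± 0.32 for Zbp1 on the log2 scale, none past the threshold by edgeR, while limma-voom called Zbp1 lower.

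None of the 4 transcription factors was called by edgeR in either knockout. In OMD-/- 2 of them had an unadjusted p under 0.05 and in PRELP-/- 1 did, and DESeq2 called 1 higher in OMD-/- and none in PRELP-/-. By limma-voom Irf9 was called higher in OMD-/- and Stat2 and Irf1 lower in PRELP-/-. Stat2 (a subunit of the ISRE-binding complex) was at 46.8, 46.6, 45.4 and 41.1 CPM in wild type, at 33.3, 39.95 and 40.7 CPM in OMD-/- and at 19.3, 34.1 and 35.1 CPM in PRELP-/-. All 6 knockout libraries lay below all 4 wild-type libraries, as was also so for Mx2 and for 12.5% of the 16428 genes tested in both comparisons. Stat2 had log2 fold changes of -0.24 ± 0.10 in OMD-/- (adjusted p = 0.0873) and -0.62 ± 0.22 in PRELP-/- (adjusted p = 0.117), neither past the threshold. Irf9 (the DNA-binding subunit of that complex) was at 16.3, 18.3, 21.8 and 26.4 CPM in wild type, at 23.2, 31.3 and 30.8 CPM in OMD-/- and at 21.99, 23.8 and 21.3 CPM in PRELP-/-. OMD-/- overlapped wild type at its low end, and the log2 fold changes were 0.46 ± 0.18 (adjusted p = 0.0715) and 0.10 ± 0.18 (adjusted p = 0.766). Irf7 (the factor that amplifies type I interferon) was at 11.2, 8.04, 11.3 and 11.3 CPM in wild type, at 10.8, 13.6 and 12.1 CPM in OMD-/- and at 13.4, 10.4 and 9.79 CPM in PRELP-/-. OMD-/- 2 and 3 and PRELP-/- 1 lay above the highest wild-type library and the other knockout libraries within its range, with log2 fold changes of 0.21 ± 0.16 (adjusted p = 0.331) and 0.07 ± 0.19 (adjusted p = 0.836). Irf1 (induced chiefly by interferon gamma) was at 30.4, 27.8, 38.6 and 34.8 CPM in wild type, at 29.1, 37.5 and 38.9 CPM in OMD-/- and at 22.8, 28.5 and 28.4 CPM in PRELP-/-. Irf1 in PRELP-/- lay near or under the low end of wild type and below each OMD-/- library, with log2 fold changes against wild type of 0.10 ± 0.14 in OMD-/- (adjusted p = 0.633) and -0.32 ± 0.17 in PRELP-/- (adjusted p = 0.251).

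**Figure D5:**
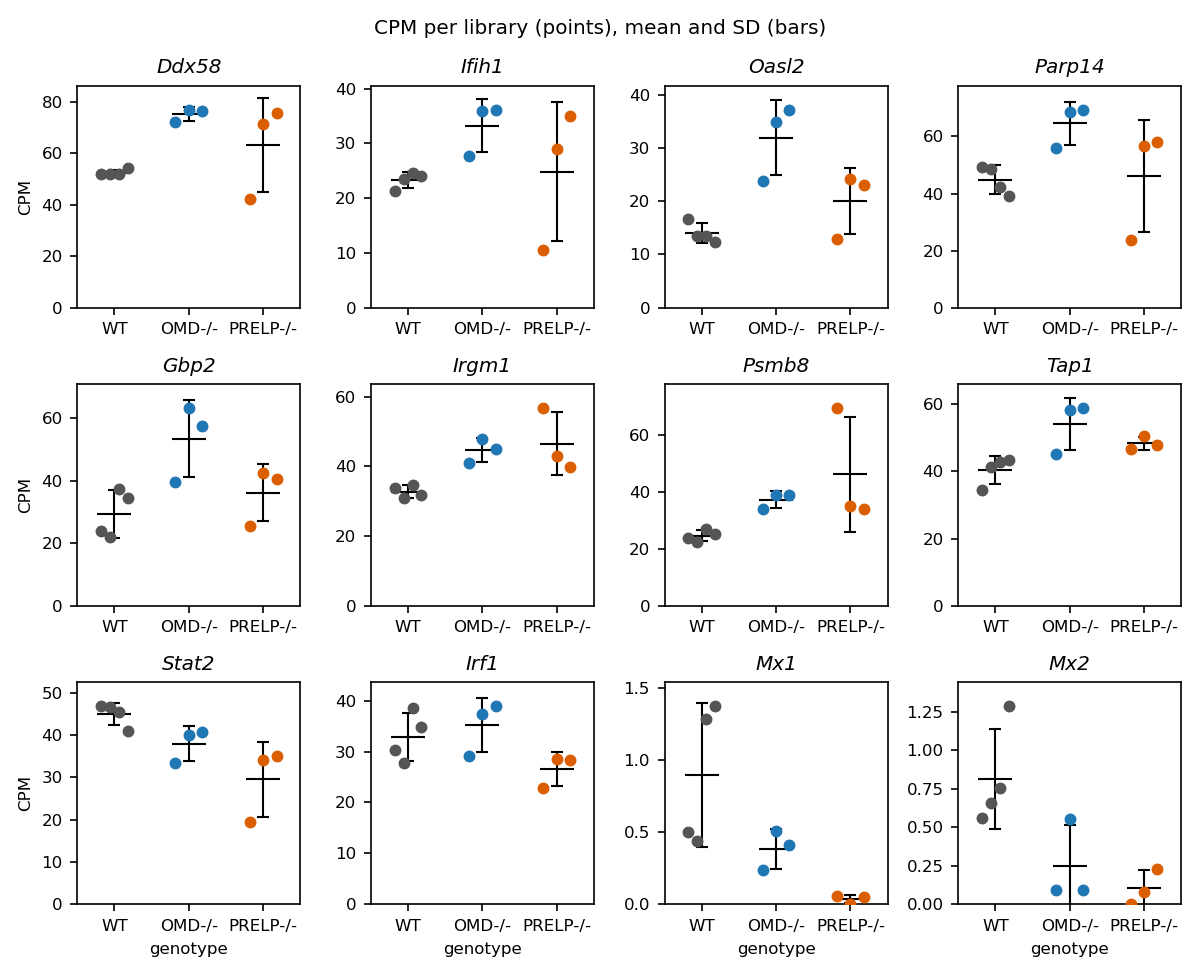
CPM of 12 interferon genes, 1 point per library, with the mean and SD of each genotype as bars. OMD-/- points of Ddx58, Ifih1, Oasl2, Parp14, Gbp2, Irgm1, Psmb8 and Tap1 all lie above the wild-type points, Stat2 points of both knockouts lie below them, and PRELP-/- 1 is the low point of Ddx58, Ifih1 and Parp14 and the high point of Irgm1 and Psmb8.

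Of the oligoadenylate synthetase family, whose enzymes make the messenger that activates RNase L, Oasl2 changed most. Oasl2 (a family member that binds and modulates RNA sensing; ENSMUSG00000029561, chr5:114896936-114912234, plus strand) was at 16.7, 13.5, 13.4 and 12.3 CPM in wild type, at 23.9, 34.8 and 37.2 CPM in OMD-/- and at 12.95, 24.1 and 23.1 CPM in PRELP-/-. The 3 OMD-/- libraries were all above wild type, OMD-/- 2 and 3 by more than OMD-/- 1, and PRELP-/- 2 and 3 were above while PRELP-/- 1 was not. The log2 fold change was 1.19 ± 0.16 in OMD-/- (adjusted p = 5.41e-04), and it stayed past the threshold in all 17 alternative analyses, with adjusted p from 2.23e-10 to 0.0130. In PRELP-/- it was 0.50 ± 0.24 (adjusted p = 0.210). Oas1a, Oas2, Oas3 and Oasl1 were at 0.199 to 3.52 CPM in every library and were not called, with log2 fold changes in OMD-/- of 0.82, -0.33, 1.14 and 0.91. The Oas1 genes are near-identical copies in the mouse, and how reads shared between copies were assigned was not given in the sources used here, so the Oas1a values are uncertain.

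Of the genes for the Ifit proteins, which bind viral RNA ends, Ifit1 and Ifit3 showed the wild-type split more than any genotype difference. Ifit3 was at 3.91, 5.77, 9.53 and 8.95 CPM in wild type, at 8.11, 8.40 and 11.1 CPM in OMD-/- and at 6.02, 9.42 and 7.45 CPM in PRELP-/-. The groups overlapped and the log2 fold changes were 0.40 ± 0.29 in OMD-/- (adjusted p = 0.331) and 0.11 ± 0.32 in PRELP-/- (adjusted p = 0.850). Ifit1 was at 4.91, 3.49, 10.9 and 10.9 CPM in wild type, at 5.42, 9.54 and 8.64 CPM in OMD-/- and at 2.61, 5.89 and 6.02 CPM in PRELP-/-, so that wild-type 3 and 4 were the highest 2 libraries of the 10. Ifit2 lay above wild type in each OMD-/- library, at 16.3, 17.8 and 19.1 CPM against 11.5, 9.92, 16.04 and 14.3 CPM. It was not called by edgeR (adjusted p = 0.0604) and was called higher by DESeq2 and limma-voom. Ifit3 has a close copy, Ifit3b, with which it may share reads.

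Isg15, the ubiquitin-like protein that the program conjugates to targets, was at 2.36 to 4.62 CPM over the 10 libraries, and its wild-type level per length, 3.66 ± 0.735 CPM per kb, was near the median of the 39 genes. Its log2 fold change in OMD-/- was 0.53 ± 0.22 (adjusted p = 0.0977), which limma-voom called and edgeR did not. Its deconjugating enzyme Usp18, also a brake on the type I receptor, was at 19.4, 20.01, 25.9 and 26.98 CPM in wild type, at 25.8, 26.5 and 25.8 CPM in OMD-/- and at 36.7, 23.2 and 21.6 CPM in PRELP-/-. PRELP-/- 1 was highest and the groups overlapped, with log2 fold changes of 0.18 ± 0.13 in OMD-/- and 0.21 ± 0.22 in PRELP-/-, neither called.

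The dynamin-like Mx GTPases, which trap viral nucleocapsids, were the only genes of the 39 that fell. C57BL/6 mice are known to carry a defective Mx1 allele. Mx1 (ENSMUSG00000000386, chr16:97447035-97462907, minus strand) had 25, 10, 29 and 31 counts in wild type, 5, 12 and 9 in OMD-/- and 1, 0 and 1 in PRELP-/-. Nearly all Mx1 counts thus came from wild type and OMD-/-. Per library size, the summed wild-type counts were 25.9 times those of PRELP-/- (exact 95% interval 6.96 to 217, for counting error only), with adjusted p = 0.0168. In OMD-/- the log2 fold change was -1.17 ± 0.54 (adjusted p = 0.128). Mx2 (ENSMUSG00000023341, chr16:97535308-97560900, plus strand) had 28, 15, 17 and 29 counts in wild type, 2, 13 and 2 in OMD-/- and 0, 2 and 5 in PRELP-/-. Scaled to library size, both knockouts lay below wild type throughout, OMD-/- 2 only just. For Mx2 the log2 fold change was -1.66 ± 0.63 in OMD-/- (adjusted p = 0.0708) and -2.86 ± 0.71 in PRELP-/- (adjusted p = 0.0470). The calls rested on few libraries. The Mx1 call was lost without PRELP-/- 2 or 3, the Mx2 call was lost when any library but PRELP-/- 1 was left out, and with the close pairs summed neither gene was called, nor were more than 0.0709% of all genes lower.

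Among the other antiviral effectors, Parp14 (an ADP-ribosyltransferase; ENSMUSG00000034422, chr16:35832874-35871544, minus strand) was at 49.3, 48.7, 42.2 and 38.99 CPM in wild type, at 55.95, 68.7 and 69.4 CPM in OMD-/- and at 23.6, 56.8 and 58.04 CPM in PRELP-/-. OMD-/- lay above wild type in each library, and PRELP-/- 1 was far below both other PRELP-/- libraries. For Parp14 the log2 fold change was 0.53 ± 0.11 in OMD-/- (adjusted p = 0.00575) and 0.03 ± 0.29 in PRELP-/- (adjusted p = 0.960). Rtp4 (a chaperone that restrains viral replication) was at 5.19, 4.89, 8.24 and 8.55 CPM in wild type, at 9.76, 10.6 and 8.91 CPM in OMD-/- and at 13.8, 9.02 and 9.05 CPM in PRELP-/-. All 6 knockout libraries lay above all wild-type libraries, a pattern found for 4 of the 39 genes and for 8.88% of those 16428 genes. Rtp4 had log2 fold changes of 0.54 ± 0.22 (adjusted p = 0.0826) and 0.64 ± 0.26 (adjusted p = 0.162). Bst2 was at 13.3, 15.9, 15.2 and 18.2 CPM in wild type, at 18.1, 23.2 and 19.01 CPM in OMD-/- and at 25.7, 16.9 and 18.1 CPM in PRELP-/-, with OMD-/- 1 just under the top of wild type, OMD-/- 2 and 3 above it, and log2 fold changes of 0.37 ± 0.14 (adjusted p = 0.0670) and 0.35 ± 0.18 (adjusted p = 0.259).

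Eif2ak2 (PKR, the kinase that halts translation on double-stranded RNA) was at 40.2, 35.6, 40.2 and 39.6 CPM in wild type, at 36.2, 49.1 and 45.3 CPM in OMD-/- and at 11.02, 34.9 and 37.9 CPM in PRELP-/-, so that PRELP-/- 1 alone stood far below the other 9 libraries. Rsad2 (viperin, which blocks viral replication) was at 13.3, 11.4, 6.34 and 7.09 CPM in wild type, at 13.95, 16.2 and 16.2 CPM in OMD-/- and at 7.56, 11.8 and 13.1 CPM in PRELP-/-, and wild-type 1 and 2 were higher than wild-type 3 and 4. Each OMD-/- library lay above each wild-type library, with a log2 fold change of 0.69 ± 0.24 (adjusted p = 0.0512) that just missed the threshold by edgeR and was called by DESeq2 and limma-voom. The remaining effectors Isg20, Trim30a, Ifi44, Ifi35 and Xaf1 were not called in either knockout, with log2 fold changes between -0.05 for Ifi35 and 0.45 for Trim30a in OMD-/- and between -0.13 for Trim30a and 0.29 for Isg20 in PRELP-/-.

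Guanylate-binding proteins and immunity-related GTPases attack the vacuoles of intracellular pathogens and answer mainly to interferon gamma. Gbp2 (ENSMUSG00000028270, chr3:142620602-142638008, plus strand) was at 23.9, 21.9, 37.3 and 34.6 CPM in wild type, at 39.7, 63.2 and 57.4 CPM in OMD-/- and at 25.6, 42.4 and 40.4 CPM in PRELP-/-. OMD-/- 2 and 3 were the highest, OMD-/- 1 only just cleared wild-type 3, and PRELP-/- overlapped wild type. The log2 fold change was 0.87 ± 0.22 in OMD-/- (adjusted p = 0.0175), lost without OMD-/- 2 or OMD-/- 3, and 0.29 ± 0.25 in PRELP-/- (adjusted p = 0.497). Gbp3 and Gbp7 were not called, with log2 fold changes of 0.51 ± 0.24 and 0.06 ± 0.15 in OMD-/-. Gbp genes lie side by side on chromosome 3 and are alike in sequence.

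Irgm1 (a regulator of the other GTPases of its family; ENSMUSG00000046879, chr11:48861968-48871683, minus strand) was at 33.9, 30.8, 34.7 and 31.8 CPM in wild type, at 40.9, 47.9 and 45.1 CPM in OMD-/- and at 56.8, 43.1 and 39.8 CPM in PRELP-/-. Every knockout library lay above every wild-type library. The log2 fold change was 0.45 ± 0.09 in OMD-/- (adjusted p = 0.00480) and 0.48 ± 0.15 in PRELP-/- (adjusted p = 0.0866), of which the second missed the threshold. Igtp (Irgm3) was at 9.93, 10.004, 13.8 and 14.5 CPM in wild type, at 9.95, 15.4 and 14.9 CPM in OMD-/- and at 9.43, 12.5 and 11.2 CPM in PRELP-/-, with overlapping groups and log2 fold changes of 0.16 ± 0.20 and -0.14 ± 0.20. It shares 8.01% of its exon bases with Irgm2 on the same strand. Iigp1 (Irga6) was at 12.1, 12.5, 21.6 and 21.4 CPM in wild type, at 13.2, 27.1 and 21.3 CPM in OMD-/- and at 11.5, 16.9 and 18.1 CPM in PRELP-/-, where wild-type 3 and 4 lay among the higher knockout libraries and no call was made.

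Psmb8 and Psmb9 are catalytic subunits of the immunoproteasome, and Tap1 is a subunit of the peptide transporter that supplies MHC class I. Psmb8 (ENSMUSG00000024338, chr17:34197721-34201454, plus strand) was at 23.8, 22.5, 27.1 and 25.4 CPM in wild type, at 33.9, 39.1 and 39.03 CPM in OMD-/- and at 69.6, 35.1 and 34.2 CPM in PRELP-/-. Each knockout library lay above wild type, PRELP-/- 1 by the widest margin. For Psmb8 the log2 fold change was 0.60 ± 0.10 in OMD-/- (adjusted p = 0.00174) and 0.88 ± 0.24 in PRELP-/- (adjusted p = 0.0645), the larger value having the larger error. Tap1 (ENSMUSG00000037321, chr17:34187553-34197225, plus strand) was at 34.3, 41.3, 42.9 and 43.3 CPM in wild type, at 45.2, 58.3 and 58.8 CPM in OMD-/- and at 46.7, 50.5 and 47.9 CPM in PRELP-/-. Here too all knockout libraries were above wild type, by small steps in PRELP-/-. The log2 fold change was 0.42 ± 0.12 in OMD-/- (adjusted p = 0.0253), lost without OMD-/- 2 or OMD-/- 3, and 0.24 ± 0.13 in PRELP-/- (adjusted p = 0.287). Psmb9, which starts next to Tap1 on the opposite strand and shares 5.79% of its exon bases with it, was at 16.9, 16.3, 20.9 and 20.7 CPM in wild type, at 15.7, 21.5 and 19.97 CPM in OMD-/- and at 26.2, 18.2 and 16.4 CPM in PRELP-/- and was not called (adjusted p = 0.901 and adjusted p = 0.781).

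Setting the knockouts against each other, none of the 37 genes tested was called by edgeR, when 0.00633% of all 15805 genes were. Mx1 and Mx2 were too low in those 6 libraries to be tested. At an unadjusted p under 0.05, 2 genes were lower in PRELP-/- and 0 higher by edgeR, against 481 and 232 of all 15805 genes. DESeq2 called none of 39. Limma-voom with sample weights called 11 of the 37 lower, Oasl2, Gbp2, Irf9 and Irf1 among them, where it called 4.39% of all genes lower and 2.01% higher. The median log2 difference of PRELP-/- from OMD-/- was -0.35 against -0.00 for all genes, 30 of the 37 values being negative. PRELP-/- libraries lay wholly below OMD-/- for 6 genes, Ifit2, Oasl1, Mx1, Rsad2, Irf1 and Gbp3 (15.4%, against 8.72% of all genes), and wholly above for none (against 6.38%). For the genes that rose in OMD-/- the difference was -0.67 ± 0.29 for Oasl2, -0.57 ± 0.27 for Gbp2, -0.49 ± 0.34 for Parp14, -0.42 ± 0.41 for Ifih1, -0.25 ± 0.24 for Ddx58, -0.17 ± 0.15 for Tap1, 0.05 ± 0.17 for Irgm1 and 0.29 ± 0.28 for Psmb8. By edgeR, a call in OMD-/- and not in PRELP-/- was therefore not shown to be a difference between the knockouts. Of these genes, limma-voom called only Oasl2 and Gbp2 lower in PRELP-/- than in OMD-/-. With the library number as a block, the number of genes called over all genes went from 1 to 43, and none of the 37 was among them. In the libraries with Y-chromosome counts, 3 PRELP-/- and 1 OMD-/-, the median difference over the 37 was -0.09. That value rests on OMD-/- 1, which was below both other OMD-/- libraries for 32 of the 39 genes.

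The ligands that start the program were at or near 0 counts. Ifnb1, Ifna1, Ifna2, Ifna4, Ifna5, Ifnl2 and Ifnl3 had 0 counts in each of the 10 libraries, which allows up to 0.0648 to 0.147 CPM by library. Ifng had at most 4 counts in any library, Ifnk at most 2, Ifnz at most 3 and Ifne at most 20. Of the 12 ligands listed, Ifnz2 matched no identifier, and none passed the filter on low counts for edgeR. DESeq2 gave a value for 4 of them in OMD-/- and called none. Of 6 receptor chains, 3 rose in OMD-/- and none fell, in a comparison in which 14.3% of all genes rose (1 lower at an unadjusted p under 0.05 by edgeR, and none by DESeq2), among them Ifnar2 of the type I receptor (0.40 ± 0.09, adjusted p = 0.00596) and Ifngr1 of the interferon gamma receptor (0.37 ± 0.12, adjusted p = 0.0318). In PRELP-/- none of the 6 was called by edgeR or DESeq2, and none had an unadjusted p under 0.05.

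Of 5 Jak and Stat genes, Jak1 rose in OMD-/- (0.43 ± 0.08, adjusted p = 0.00393) and Tyk2 fell (-0.39 ± 0.08, adjusted p = 0.00417). Tyk2, the kinase bound to the type I receptor, was the only one of them called in PRELP-/- by edgeR (-0.59 ± 0.14, adjusted p = 0.0431), while limma-voom called 2 higher and 1 lower. Of 16 adaptors, kinases and factors of nucleic acid sensing, 4 rose and 4 fell in OMD-/-, when 29.4% of all genes were called in either direction, and 0 rose and 3 fell in PRELP-/- by edgeR and by DESeq2 alike, with 2 higher and 4 lower at an unadjusted p under 0.05. Ikbke, a kinase that activates Irf3 and Irf7, was at 23.4, 28.2, 27.3 and 26.98 CPM in wild type, at 14.4, 14.3 and 13.8 CPM in OMD-/- and at 15.3, 14.4 and 15.1 CPM in PRELP-/-. It was below wild type in both knockouts, with log2 fold changes of -0.90 ± 0.10 (adjusted p = 1.79e-04) and -0.84 ± 0.13 (adjusted p = 0.00821). Irf3 fell in OMD-/- (-0.52 ± 0.09, adjusted p = 0.00173). Tbk1, the partner kinase of Ikbke, fell in PRELP-/- (-0.61 ± 0.14, adjusted p = 0.0330). The 5 negative regulators that could be tested gave no call in either knockout by edgeR or DESeq2, with 1 at an unadjusted p under 0.05 in OMD-/- and 0 in PRELP-/-.

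Of the 3 Isg15 conjugation enzymes, the conjugating enzyme Ube2l6 rose in OMD-/- (0.72 ± 0.16, adjusted p = 0.00717) and the activating enzyme Uba7 fell in OMD-/- (-0.41 ± 0.12, adjusted p = 0.0280) and in PRELP-/- (-0.60 ± 0.14, adjusted p = 0.0360). A further list of 47 interferon-induced genes, also chosen with earlier results of these data known, gave 20 higher (44.4% of 45 tested) and 3 lower in OMD-/-. In that comparison 14.3% of all genes rose and 15.1% fell, and the median change of the list was 0.46 (log2). The list gave 0 higher and 2 lower of 44 in PRELP-/- by edgeR, with a median of 0.08. Of this list, 10 genes were higher and 4 lower in PRELP-/- at an unadjusted p under 0.05, against 1914 and 2512 of all 16581 genes. DESeq2 called 3 higher and 3 lower, against 2.97% and 5.17% of the 31117 genes in its fit. By limma-voom 17 of 44 were higher and 4 lower in PRELP-/-, where it called 20.5% of all genes higher and 21.5% lower. The 2 of smallest adjusted p in OMD-/- were Lgals3bp (0.84 ± 0.09, adjusted p = 1.62e-04), a secreted scavenger receptor protein, and Tapbp (0.79 ± 0.09, adjusted p = 2.17e-04), which loads peptide on MHC class I. In PRELP-/- they were Oas1b (-2.23 ± 0.29, adjusted p = 0.00337) and Gbp4 (-1.86 ± 0.24, adjusted p = 0.00360). The Ifi200 cluster on chromosome 1 encodes sensors and regulators with a DNA-binding domain. Of its 10 genes tested, 1 rose in OMD-/- (Ifi206, 1.41 ± 0.41, adjusted p = 0.0256), against 14.3% of all genes, and limma-voom called 3 higher. None was called in PRELP-/- by edgeR or DESeq2, with 1 at an unadjusted p under 0.05, although 9 of the 10 fitted values were negative and limma-voom called 2 lower. Compared directly, PRELP-/- was below OMD-/- in all 10 fitted values, with a median of -0.79 (log2). Of these, 4 had an unadjusted p under 0.05 and none was called by edgeR or DESeq2. Limma-voom called 6 lower, where it called 4.39% of all genes lower.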

How the data were processed

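PolyA RNA from mouse bladder tissue was sequenced with a strand-specific kit in 10 libraries, 4 wild type, 3 OMD-/- and 3 PRELP-/-. The deposited values are the authors' raw counts per Ensembl gene, made with featureCounts. The submitters' processing notes name STAR 2.5.2b, DESeq2 and the builds GRCm38 and hg38, whereas the file headers name HISAT2. The annotation, the strand setting of the counting and any use of molecular identifiers were not given in the sources used here, so reads from overlapping genes on opposite strands may not have been told apart. The authors' own comparison tables, which hold fold changes and p-values, were not used.

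All 55536 identifiers were named from GENCODE vM21. The 39 genes and the other lists were chosen with earlier results of these data known. Each pair of genotypes was fitted across all genes with edgeR 4.0.16 (TMM scaling, filterByExpr, robust quasi-likelihood F-test, two-sided), with Benjamini-Hochberg adjustment over all genes tested and a threshold of 0.05. Printed CPM used 1 TMM scaling over the 10 libraries, and CPM per kb divides by the summed exon length. Values are given in every library for genes called in either knockout, for Irf1, Irf7, Irf9 and Stat2, for the gene of highest level per length in each role group and for genes on one side of all wild-type libraries in both knockouts. Ifit1, Ifit2, Eif2ak2, Rsad2, Iigp1, Psmb9 and the non-members Ikbke, Omd and Prelp were given in addition, the first 6 chosen after their values were seen. Alternatives were DESeq2 1.42.0, limma-voom (limma 3.58.1), other scaling, no filter, 1 fit over 3 genotypes, a replicate block, a Y-chromosome covariate and leaving out each library. Summing the close pairs and splitting by Y-chromosome counts were chosen after seeing the data. The edgeR fit was also run on simulated counts of independent libraries. These held no close pairs, so that run does not speak to the effect of the pairs on p-values.

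The replicate numbers are shared by the genotypes without a stated pairing. Between OMD-/- and PRELP-/- same-numbered libraries correlated in their deviations at 0.303, 0.181 and 0.148, which was counted as pairing, although OMD-/- 2 with PRELP-/- 3 and OMD-/- 3 with PRELP-/- 2 reached 0.197 and 0.164. Neither knockout paired with wild type.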

Additional observations from a re-analysis of the deposited data

Results flagged for a closer look

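In 4 of the 39 genes a single wild-type library stood apart from the other 3 by more than Dixon's 95% limit for 4 values, where chance flags about 1 group in 20. Ddx58 was highest in wild-type 4, at 54.3 CPM, with the other 3 between 51.8 and 52.01 CPM. Isg20 was highest in wild-type 3, at 25.3 CPM against 20.7 to 21.4 CPM. Wild-type 2 was the lowest for Eif2ak2, at 35.6 CPM against 39.6 to 40.2 CPM, and for Irf7, at 8.04 CPM against 11.2 to 11.3 CPM. The groups of 3 libraries were not examined in this way.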

How the results depend on the processing

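The median log2 fold change of the interferon genes was positive in OMD-/- under all 17 alternatives, from 0.28 to 0.52, while the number called was not stable. In OMD-/-, 14 rose and 1 fell with no filter on low counts, where 7.82% of all genes rose and 8.28% fell. With the Y-chromosome covariate 15 rose and 2 fell (all genes 17.5% and 17.2%), and by limma-voom 16 and 1 (22% and 21.4%). In 1 fit over the 3 genotypes 2 rose (all genes 6.56% and 8.13%), and with the close pairs summed 3 rose (3.41% and 5.65%). In the libraries without Y-chromosome counts 16 rose and 2 fell (all genes 27.4% and 26.3%). In those with them, which held 1 OMD-/- library, the median was 0.32. Over all genes, 2485 were called in OMD-/- with 1 fit, 1658 with close pairs summed and 8989 in the libraries without Y-chromosome counts. In PRELP-/-, DESeq2 called 2 of the 39 higher (2.97% of all genes), the unfiltered fit 1 (0.668%) and the 1 fit 2 (5.77%). Limma-voom called 9 higher and 4 lower (20.5% and 21.5% of all genes). The number lower was 1 with the Y-chromosome covariate (3.02% of all genes). It was 0 with the close pairs summed (0.0709%) or in the libraries with Y-chromosome counts (0.709%). Over all genes in PRELP-/-, 2534 were called by DESeq2, 2485 with 1 fit, 536 with the Y-chromosome covariate, 6973 by limma-voom, 13 with close pairs summed and 119 in the libraries with Y-chromosome counts. The PRELP-/- median was 0.26 with the covariate and in the libraries with Y-chromosome counts, and -0.021 by limma-voom. Between the knockouts, 85 genes were called by DESeq2, 5 without a filter, 3 with 1 fit, 2 with the covariate, 1012 by limma-voom and 0 with close pairs summed or in the libraries with Y-chromosome counts. The median difference there was -0.082 and -0.090 under the covariate and that split, and limma-voom called 11 interferon genes lower, against 4.39% of all genes. The OMD-/- and wild-type libraries without Y-chromosome counts were 2 close pairs, so the spread there was only that within pairs. The close pairs and the splits by Y-chromosome counts were chosen after seeing the data. The cause of these changes was not tested.

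With the replicate number as a block, 14 interferon genes rose in OMD-/-, where 10.1% of all genes rose and 11.1% fell. No interferon gene was called in PRELP-/- (0 lower, with 115 genes called in all). Between the knockouts 43 genes were called, none of them an interferon gene. Neither knockout was paired with wild type: same-numbered libraries correlated at 0.041, -0.044 and 0.024 for OMD-/- and -0.059, 0.14 and -0.10 for PRELP-/-.

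Leaving out 1 library at a time gave 6 to 13 interferon genes higher and 0 to 1 lower in OMD-/-, and 0 to 6 higher and 0 to 3 lower in PRELP-/-. Over all genes it gave 2951 to 4850 called in OMD-/-, 475 to 3807 in PRELP-/- and 1 to 36 between the knockouts. Without PRELP-/- 1, which left the close pair PRELP-/- 2 and 3, 6 rose in PRELP-/- and 3807 genes were called. Without any other library of that comparison 475 to 716 genes were called. The 13 in OMD-/- were reached without wild-type 3, and 2951 and 3128 genes were called without OMD-/- 3 and OMD-/- 2. The 36 and 16 called between the knockouts came without OMD-/- 1 and without PRELP-/- 1. Where the sign of a single gene turned, the turned value did not pass the test. In OMD-/-, Usp18 was -0.015 in the libraries without Y-chromosome counts, and Igtp and Irf1 were -0.017 and -0.018 in those with them. In PRELP-/-, the block gave -0.074 for Ifih1 and -0.14 for Parp14, summed close pairs -0.13 and -0.15 for the same genes, limma-voom -0.085 for Irf7 and -0.10 for Usp18, and the covariate 0.13 for Igtp and -0.10 for Parp14, as did the libraries with Y-chromosome counts (0.13 and -0.10). With 1 library left out, PRELP-/- values ran from -0.25 to 0.46 for Ifih1, -0.10 to 0.29 for Ifit3, -0.046 to 0.16 for Irf7, -0.0060 to 0.23 for Irf9, -0.17 to 0.37 for Parp14 and -0.031 to 0.35 for Usp18, of which the highest values of Ifih1 and Parp14, without PRELP-/- 1, were called. Mx1, Mx2 and the oligoadenylate synthetases other than Oasl2 rested on low counts, and no alternative varied the depth.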
